A study of Mus musculus with 20 samples.

Results

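Denervation of wild-type (WT) gastrocnemius was examined by RNA sequencing of muscle taken 7 days after sciatic nerve surgery, as the comparison of denervated (den) with sham-operated limbs. The libraries were chosen by their labels, as the 5 WT den and the 5 WT sham libraries among 20 in the series. All came from 12-week-old male C57BL/6 mice that carry the normal Opg gene. In the den group the right sciatic nerve was cut, and in the sham group the left nerve was exposed and left whole, so the sham muscle lay in the other limb of an operated mouse. The other 10 libraries, from Opg-/- mice with the same surgery, entered the same fit, where they share the estimate of each gene's spread and give the test of whether the response differs between genotypes. The files of sham libraries 1 and 2 were nearly the same. Their reads differed by less than sampling noise, with a chi-squared of 0.324 per degree of freedom, where the 19 other pairs of WT libraries in one group had 6.78 to 22.5. The mean of this pair was used as 1 library, so 5 den and 4 sham libraries entered the tests.

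Skeletal muscle fibres depend on their motor nerve. The nerve's signals and the electrical activity it evokes confine acetylcholine receptors to the synapse, keep the adult receptor and channel subunits in use, and hold the fast fibre program of contraction and energy supply. Loss of the nerve is known to spread receptors along the fibre, to bring back embryonic isoforms and to start the breakdown of protein.

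The values are normalized expected counts: reads that the authors' quantification assigned to a gene, divided by a size factor per library. Values of single libraries are given in the order of their numbers, with the mean of the near-identical pair at the head of the sham values. Differences are on the log2(value + 1) scale as den minus sham, with the standard error (SE), and p was adjusted over all genes tested (limma, Benjamini-Hochberg). A value written as n-fold is the den mean over the sham mean. A gene is said to rise or fall at an adjusted p under 0.05, and is a differentially expressed gene (DEG) if its log2 difference also exceeds 1 in size. Each library held between 15186247 and 20102295 reads assigned to genes.

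Every den library was separated from every sham library along the principal axis of variation, which held 58.6% of the variance (−66.5 to −55.9 in den and 76.4 to 77.0 in sham libraries). Of 17948 genes tested, 1721 were DEGs with higher values in den muscle (9.59%) and 1826 were DEGs with lower values (10.2%), 19.8% together. At an adjusted p under 0.05 alone, 4827 genes rose (26.9%) and 4604 fell (25.7%), 52.5% together, and the median log2 difference of all genes was −0.0022. For each list below, the counts that rose and fell are to be set beside these shares of all genes. The change was large for many genes, with 82 DEGs above 4 and 68 below −4 on the log2 scale. Den libraries had a smaller sum of values (14142249 to 15931124, against 17865929 to 20702152 in sham), and their 10 most abundant genes took 11.18% to 13.26% of it, against 22.66% to 25.3% in sham libraries. With all libraries scaled to equal sums, the median of all genes moved to 0.26, and 2707 DEGs were higher and 1118 lower. At an adjusted p under 0.05 alone, 7034 genes then rose and 2724 fell. Beside the counts of a gene list, a pair of numbers with equal sums gives the members that rose and fell after this scaling. Each difference is thus relative to the other genes, and one near 0 has no firm sign.

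The genes whose share of all values differed most were very abundant muscle transcripts. Myh4, the fast type IIB myosin heavy chain, took 1.48% ± 0.43 of all values in den muscle and 5.45% ± 0.60 in sham muscle (SD, n = 5 and 4), the largest loss of any gene. Ckm, the muscle creatine kinase, took 1.06% ± 0.16 in den and 2.44% ± 0.04 in sham muscle, and mt-Co1, a cytochrome oxidase subunit encoded in mitochondrial DNA, 1.57% ± 0.11 in den and 2.92% ± 0.14 in sham muscle. Atp2a1, Acta1, Pygm, Aldoa, Tpm1, Eno3 and Gapdh, which serve calcium pumping, contraction and glucose use, make up the rest of the 10 genes that lost most. The 10 that gained most included structural and signalling genes, and none gained more than 0.477 percentage points. Des, the intermediate filament desmin, took 0.794% ± 0.018 in den and 0.317% ± 0.013 in sham muscle. Mknk2, a kinase of the cap-binding factor eIF4E, took 0.375% ± 0.027 in den and 0.0337% ± 0.0040 in sham muscle, and Myl12a, a regulatory light chain of non-muscle myosin, 0.275% ± 0.018 in den and 0.0154% ± 0.0005 in sham muscle. Car3, Flnc, Hspb8, H19, Pdlim3, Hsp90ab1 and Ankrd23 were the others.

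**Figure D1:**
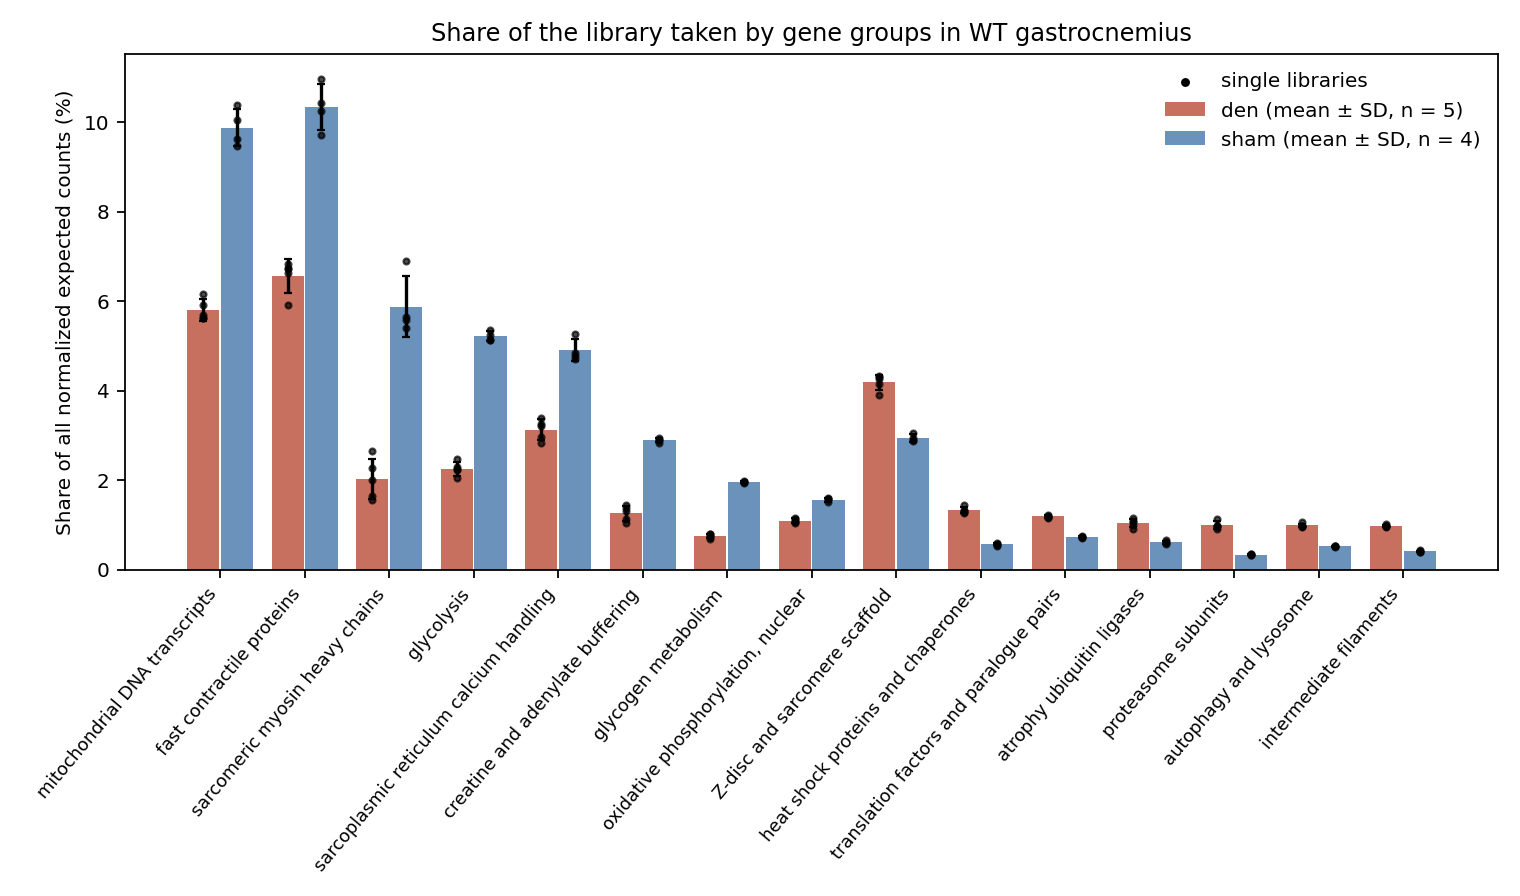
Share of all normalized expected counts (%, y axis) taken by 15 groups of genes (x axis) in den and sham WT gastrocnemius. Bars give the mean, error bars the SD and points the single libraries (5 den, 4 sham). Contractile, mitochondrial and glycolytic groups took a smaller share in den muscle, for example 5.81% ± 0.24 in den and 9.88% ± 0.42 in sham libraries for mitochondrial DNA transcripts, while the proteasome, chaperone and scaffold groups took a larger one.

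Acetylcholine receptor subunits carried some of the largest differences in the table. The muscle receptor is a pentamer built from alpha, beta and delta subunits with either the fetal gamma or the adult epsilon subunit. Of the 5 subunit genes 4 rose and 1 fell (median log2 difference 5.04). Chrng, the gamma subunit (ENSMUSG00000026253, chromosome 1, 87204657 to 87212694 in mm10), had 1637, 2765, 857, 739 and 1204 in den libraries, against 0, 9.41, 1.07 and 6.62 in sham libraries. The lowest den library stood far above the highest sham library, where few reads were found (log2 difference 8.48 ± 0.65, adjusted p = 1.01e-08). Chrnd, the delta subunit, had 3007, 4059, 1833, 1865 and 2339 in den and 55.7, 57.6, 31.1 and 40.8 in sham libraries, a mean 56.6 times as high (log2 difference 5.77 ± 0.25, adjusted p = 4.81e-12). Chrna1, the alpha subunit that binds acetylcholine, had 10838, 13683, 8219, 8859 and 9999 in den and 332, 301, 275 and 329 in sham libraries, 33.4 times as high (adjusted p = 5.24e-18). In all of these genes den library 2 was the highest. Chrnb1, the beta subunit, differed less, with 3666 to 4543 in den and 616 to 767 in sham libraries (5.67-fold, adjusted p = 3.86e-19). Chrne, the epsilon subunit, moved the other way and had 139, 232, 131, 150.2 and 139.5 in den, against 373, 398, 389 and 433 in sham libraries (log2 difference −1.36 ± 0.13, adjusted p = 3.73e-10). Per kilobase of exon the gamma subunit stood at 346 in den and 1.03 in sham muscle, and the epsilon subunit at 93.7 in den and 236 in sham muscle, so the order of these alternative subunits was reversed.

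The promoters of 4 of these subunits are shown for a short motif that 3 of them hold. Transcription factors of the MyoD family bind E-boxes, which have the letters CANNTG, and CAGCTG is a form that they bind well. The RefSeq windows below (GRCm38.p6, 250 bases before to 50 after the gene's RefSeq start, read along the gene's strand) have each CAGCTG in capitals. The Chrng window lies wholly inside the gene span given above, so its RefSeq start is downstream of where that span begins. CAGCTG reads the same on both strands.
Chrng promoter (chr1:87205561-87205860, plus strand): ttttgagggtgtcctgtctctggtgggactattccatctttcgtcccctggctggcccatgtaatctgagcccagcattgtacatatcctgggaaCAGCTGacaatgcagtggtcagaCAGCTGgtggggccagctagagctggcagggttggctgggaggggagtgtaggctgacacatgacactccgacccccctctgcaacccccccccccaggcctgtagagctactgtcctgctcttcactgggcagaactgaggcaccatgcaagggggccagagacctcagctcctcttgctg
Chrna1 promoter (chr2:73580289-73580588, minus strand): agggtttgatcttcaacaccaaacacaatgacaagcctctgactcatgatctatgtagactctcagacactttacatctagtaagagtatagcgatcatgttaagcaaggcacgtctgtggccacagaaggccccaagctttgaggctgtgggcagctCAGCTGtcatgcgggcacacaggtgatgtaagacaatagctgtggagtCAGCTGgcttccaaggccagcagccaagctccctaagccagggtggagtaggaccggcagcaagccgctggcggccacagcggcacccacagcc
Chrne promoter (chr11:70619145-70619444, minus strand): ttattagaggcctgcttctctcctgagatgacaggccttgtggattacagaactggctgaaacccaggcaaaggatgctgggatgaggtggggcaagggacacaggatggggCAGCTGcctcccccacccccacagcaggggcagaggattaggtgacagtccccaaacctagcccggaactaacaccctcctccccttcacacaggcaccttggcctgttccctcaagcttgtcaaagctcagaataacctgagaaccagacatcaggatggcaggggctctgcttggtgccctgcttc
Chrnb1 promoter (chr11:69795888-69796187, minus strand): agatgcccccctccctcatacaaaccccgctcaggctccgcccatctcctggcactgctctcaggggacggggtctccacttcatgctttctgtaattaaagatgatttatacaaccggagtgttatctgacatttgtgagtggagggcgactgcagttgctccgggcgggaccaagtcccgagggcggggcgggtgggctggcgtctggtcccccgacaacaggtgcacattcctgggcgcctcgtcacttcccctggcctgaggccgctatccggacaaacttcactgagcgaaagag
The gamma window held CAGCTG 155 and 132 bases before the start, and the alpha window held it 92 and 44 bases before. The epsilon window, of the subunit that fell, also held 1 copy, 138 bases before the start, while the beta window held 0. E-boxes of any form (CANNTG, with CAGCTG included) numbered 3 in each of the gamma, alpha and beta windows and 1 in the epsilon window. The form CAGCTG was in 16.3% of all 32851 RefSeq windows of this length, in 23.2% of the windows of higher DEGs, in 21.6% of those of lower DEGs and in 18.9% of those of all genes tested. A match describes the letters only.

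The genes that place and hold the receptor did not move as a group. Of 16 synapse organizers 6 rose and 8 fell (8 and 4 with equal sums), with a median log2 difference of −0.17 that turned to 0.13 with equal library sums. Musk, the kinase that clusters receptors in answer to the nerve's agrin, had 1659, 1953, 1133, 1171 and 1475 in den and 509, 478, 433 and 501 in sham libraries (3.08-fold, adjusted p = 2.53e-05). Ncam1, an adhesion protein of the synapse and of denervated fibres, was 8.78-fold (984 to 1361 in den against 113 to 152 in sham muscle), Syne1, which anchors nuclei beneath the synapse, 2.75-fold, and Rapsn, the scaffold on the receptor's inner face, 1.83-fold (adjusted p at most 2.21e-08). Ache, the esterase that ends the signal, went down, with 139.9, 143, 119, 226 and 117 in den and 1391, 1281, 1261 and 1371 in sham libraries (log2 difference −3.19 ± 0.19, adjusted p = 8.25e-11). Colq, the collagen tail that holds the esterase in the cleft, fell as well (52 to 129.7 in den against 248 to 304 in sham muscle, adjusted p = 2.04e-04).

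Among 16 factors that support or attract nerves 4 rose and 6 fell (median log2 difference −0.26, 0.02 with equal sums). Gdnf, a survival factor for motor neurons, had 74.7, 58.9, 48.1, 47.6 and 50.2 in den and 11.3, 4.71, 11.8 and 14.3 in sham libraries (adjusted p = 2.11e-06), and Nrcam, a neuronal adhesion protein, 205, 283, 119, 101 and 125 in den and 6.53, 5.88, 19.3 and 8.82 in sham libraries (adjusted p = 7.28e-10). Both groups of libraries stood wholly apart. Ntf5, neurotrophin 4, which muscle makes according to its activity, had 3.43, 3.47, 3.21, 6.53 and 0 in den, against 72.6, 65.9, 63.4 and 75 in sham libraries (adjusted p = 5.33e-09). Fgfbp1, a carrier of fibroblast growth factors at the synapse, also fell (4.01 to 31.2 in den against 96.5 to 184 in sham muscle, adjusted p = 2.50e-07).

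**Figure D2:**
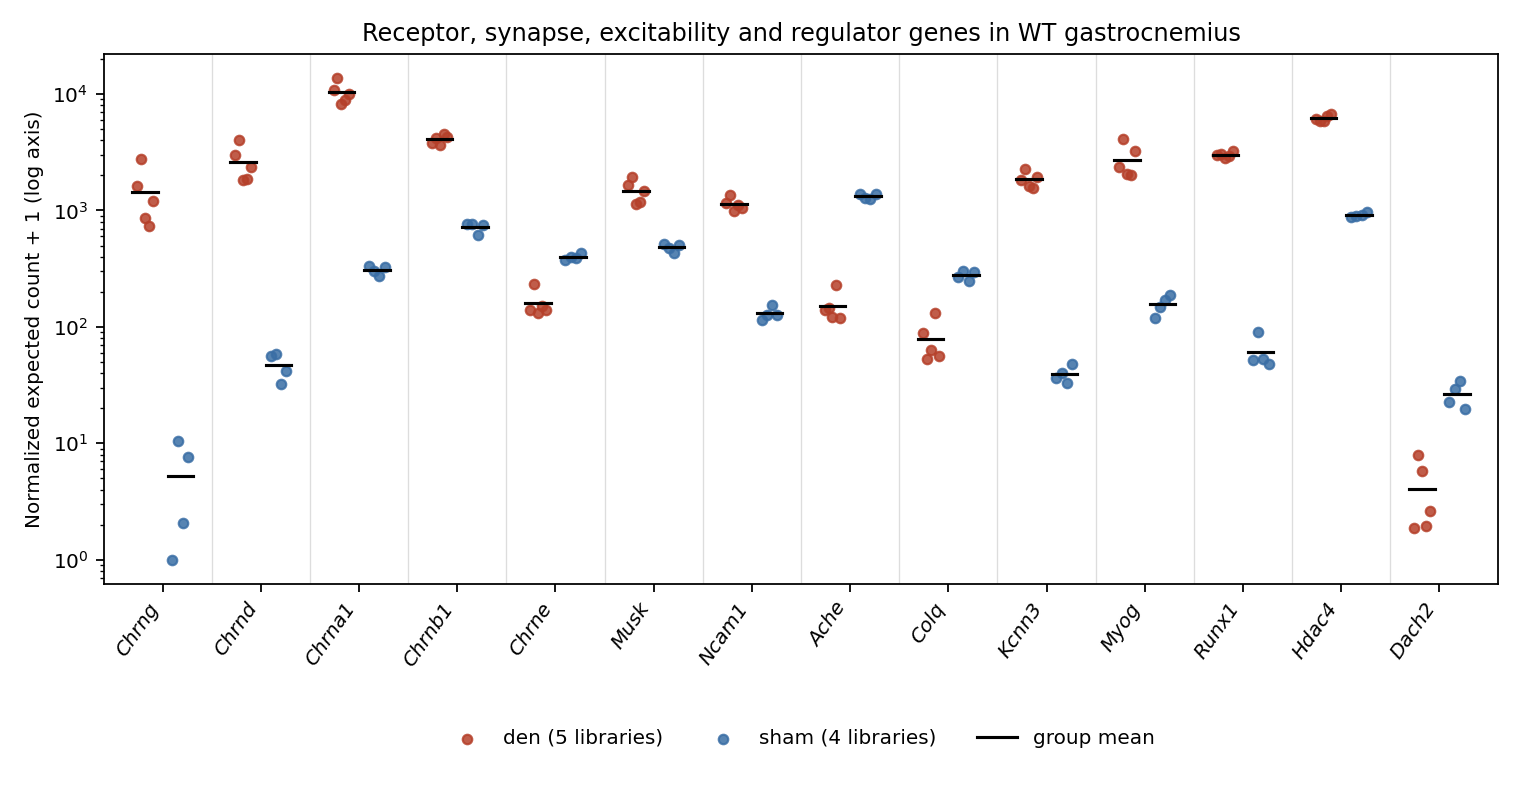
Normalized expected count + 1 (log axis) of 14 genes of the receptor, synapse, membrane and regulators in each WT library, 5 den and 4 sham, with bars for group means. Den and sham libraries did not overlap for any of these genes, which were chosen with their values known. Chrne, Ache, Colq and Dach2 were the ones lower in den muscle. Among all genes tested every den library lay above every sham library for 22.8% and below for 21.5%.

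Channels of the fibre membrane were exchanged rather than lost together. Of 21 channel and pump genes 7 rose and 13 fell (median log2 difference −0.57). Kcnn3, a calcium-activated potassium channel known from denervated fibres, had 1823, 2257, 1635, 1567 and 1945 in den and 35.6, 38.8, 32.2 and 47.4 in sham libraries (47.9-fold, adjusted p = 5.25e-12). Cacng1, a subunit of the voltage sensor, was 4.36-fold. The adult sodium channel Scn4a stood at 7563 to 8803 in den and 8978 to 11384 in sham libraries (log2 difference −0.33 ± 0.07, adjusted p = 2.05e-04), a call lost with equal library sums (adjusted p = 0.782). The members that fell most were Kcna7 (log2 difference −3.13) and Kcnc1 (−2.93), potassium channels that repolarize the membrane, and the sodium channel subunit Scn4b (−2.75). Clcn1, the chloride channel that steadies the resting membrane, had 1529 to 1794 in den and 4194 to 5632 in sham libraries (adjusted p = 2.28e-11). Kcng4, a modifying potassium channel subunit outside the list, had 11.2, 4.33, 12.8, 5.6 and 11.2 in den and 769, 713, 651 and 791 in sham libraries and was among the 12 named genes that fell most.

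Calcium handling in the sarcoplasmic reticulum (SR) fell for 11 of 19 genes and rose for 2 (median log2 difference −0.84), while 6 rose with equal sums and 4 without the sham pair. Sln, sarcolipin, a small peptide that slows the calcium pump, had 2994, 2722, 2229.8, 2229.8 and 1941 in den and 25.5, 54.1, 19.3 and 54 in sham libraries (log2 difference 6.07 ± 0.62, adjusted p = 4.03e-07). Dhrs7c, a dehydrogenase of the SR membrane, had 14.6, 12.1, 17.6, 14.9 and 19.1 in den, against 3029.5, 2893, 2483 and 2656 in sham libraries (log2 difference −7.39 ± 0.33, adjusted p = 5.76e-12). These 2 genes bounded the list at either end. The fast-fibre pump Atp2a1 had 213619 to 277952 in den and 488315 to 647662 in sham libraries (0.467-fold, adjusted p = 3.82e-10), while the slow-fibre pump Atp2a2 rose to 4163 to 4802 in den, against 1936 to 3650.2 in sham libraries (adjusted p = 9.75e-05). Per kilobase of exon Atp2a1 remained the more abundant, at 72788 against 741 for Atp2a2 in den muscle and 155773 against 433 in sham muscle. Casq1, the calcium store of the SR, Jph2, which couples the SR to the surface membrane, and Pvalb, the calcium buffer of fast fibres, stood at 0.25, 0.243 and 0.471 times the sham mean. Ryr1, the release channel, had 62179 to 86520.1 in den and 64753 to 89564 in sham libraries (log2 difference 0.02 ± 0.11, adjusted p = 0.918), and was called higher with equal sums (log2 difference 0.32, adjusted p = 0.00244).

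Sarcomeric myosin heavy chains set the speed of a fibre, and the embryonic Myh3 and the fast Myh4 moved in opposite directions. Of 9 genes 3 rose and 4 fell. Myh4, of the fastest fibres (IIB), had 144173, 161156, 310146, 239983 and 256811 in den and 1300130.00, 910678, 933194 and 926155 in sham libraries (log2 difference −2.24 ± 0.19, adjusted p = 4.49e-09). Myh1, of IIX fibres, had 32612 to 41532 in den and 39195 to 72813 in sham libraries and did not pass (adjusted p = 0.06), though it passed in 6 of the alternative settings, among them without sham library 3 (adjusted p = 0.0166) or 5 (0.0477). Myh2, of IIA fibres, had 34487, 39819, 41510.2, 44595 and 42064 in den and 37136, 14993, 26738 and 30318 in sham libraries. These groups overlapped, and the call (adjusted p = 0.0151) was lost with WT libraries alone (adjusted p = 0.0552). Myh7, of slow fibres, had 1377 to 3032 in den and 1244 to 3883 in sham libraries (adjusted p = 0.688). The embryonic Myh3 had 2419, 2441, 865, 818 and 1318 in den and 141, 21.2, 24.7 and 76.1 in sham libraries (adjusted p = 3.15e-06), and the perinatal Myh8 1230.2, 564, 442, 326 and 448 in den and 60.02, 90.6, 54.8 and 75.7 in sham libraries (adjusted p = 6.82e-06). Per kilobase of exon Myh4 was the first and Myh1 and Myh2 came next in both groups, at 36977, 6080.1 and 5674 in den muscle and 169139, 7965 and 3825 in sham muscle. Myh1 and Myh2 did not differ beyond the spread of the libraries in den muscle.

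The other fast contractile genes fell with Myh4, 10 of 11 with a median log2 difference of −1.05 (−0.74 with equal sums). Mylk2, the kinase of the fast light chain, had 2194, 1931, 4419.5, 4662 and 3410.2 in den and 22891, 19979, 25580.3 and 25442 in sham libraries, Myoz1, a calcineurin-binding Z-disc protein of fast fibres, 4896 to 7214 in den and 37366 to 45129.9 in sham libraries, and Mybpc2, fast myosin-binding protein C, 13043 to 25764 in den and 93246 to 138767 in sham libraries. Their sham means were 7.06, 6.43 and 5.46 times the den means. Acta1, the skeletal actin, had 261928 to 315711 in den and 515906 to 690727 in sham libraries (log2 difference −0.93 ± 0.13, adjusted p = 1.03e-06), and Tpm1, the fast tropomyosin, 90355 to 130647 in den and 228902 to 287761 in sham libraries. Of 14 slow, cardiac and developmental genes 7 rose and 2 fell (median 0.32). Tnnt2, the troponin T of heart and embryonic muscle, had 482, 582, 398, 529.9 and 426 in den and 19.3, 27.1, 20.4 and 59.5 in sham libraries (adjusted p = 1.01e-09), and Myl4, the embryonic light chain, 1285, 1388, 1095, 1191 and 1332 in den and 145, 144, 92.4 and 223 in sham libraries (adjusted p = 1.11e-10). Tnnt1, the slow troponin T, was 3.33-fold (1802 to 2119 in den against 305 to 844 in sham muscle). Actc1, the cardiac actin that is also an embryonic isoform, went against these and had 497, 276, 254, 287 and 319 in den and 4919, 3513, 3033 and 4258 in sham libraries (adjusted p = 4.58e-07). The other member that fell was Myl3, a light chain of slow and cardiac muscle (mean 591 in den and 1688 in sham libraries, adjusted p = 1.00e-04). The slow members thus went both ways.

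Scaffold genes of the Z-disc and M-band rose for 12 and fell for 7 of 22 (median log2 difference 0.56, 15 and 5 with equal sums). Ankrd1, a titin-binding ankyrin protein induced by stretch and injury, had 12598, 23427, 12168, 10049 and 13406 in den and 182, 248, 186 and 149.96 in sham libraries (log2 difference 6.18 ± 0.34, adjusted p = 1.51e-10). Igfn1, an immunoglobulin-fold Z-disc protein, had 10282, 10829, 12812, 9883 and 11810.4 in den and 109.7, 233, 262 and 336 in sham libraries (log2 difference 5.66 ± 0.36, adjusted p = 1.10e-09). Myom3, an M-band protein of slow and intermediate fibres, was 12.4-fold, Csrp3, the muscle LIM protein, 6.32-fold, and Flnc, filamin C, 3.21-fold. Pdlim3 and Ankrd23, which bind actinin and titin, were 4.33-fold and 1.9-fold. Ldb3, which holds actinin at the Z-disc, fell to 13727 to 15499 in den, against 34803 to 39922 in sham libraries (adjusted p = 1.33e-12).

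Intermediate filaments rose for 5 and fell for 1 of 9 genes, led by a pair of keratins known from simple epithelia. Krt18 (ENSMUSG00000023043, chromosome 15, 102028180 to 102032027) had 4033, 5629.8, 3399, 5068 and 4953 in den and 3.26, 21.2, 8.59 and 6.62 in sham libraries (log2 difference 8.96 ± 0.59, adjusted p = 1.59e-09), the largest difference of any named gene. Krt8, its partner in the filament, had 2984, 4851, 2077, 2996 and 2407 in den and 9.79, 25.9, 9.67 and 13.2 in sham libraries (log2 difference 7.66 ± 0.48, adjusted p = 7.45e-10). Den library 2 was the highest for both. Lmna, the nuclear lamin, was 5.13-fold (7254 to 8761 in den against 1452 to 1617 in sham muscle), and Des was 2.03-fold. In the dystrophin complex 6 of 12 genes rose and 4 fell (7 and 2 with equal sums), and the member that moved furthest was Nos1, the neuronal nitric oxide synthase at the membrane, with 152, 108, 244, 162 and 219 in den and 1387, 1452, 1529 and 1305 in sham libraries (log2 difference −3.05 ± 0.23, adjusted p = 4.15e-09).

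Regulators of muscle genes also changed. Of 16 myogenic and fusion genes 9 rose and 2 fell (median log2 difference 0.60). Myog, myogenin, a MyoD-family activator of receptor genes, had 2347, 4095, 2037, 1997 and 3212 in den and 119, 147, 169 and 186 in sham libraries (log2 difference 4.09 ± 0.23, adjusted p = 1.29e-10). Myf6, the family member of adult fibres, rose to 14003 to 16216 in den, against 2698 to 2856 in sham libraries (5.55-fold, adjusted p = 2.39e-20), and Myod1 to 851 to 1778 in den, against 389 to 569 (adjusted p = 2.36e-04). Id2, an inhibitor of these factors, was 4.63-fold. Mymk and Mymx, the membrane proteins that fuse myoblasts, were low and scattered, with 74.7, 94.5, 12, 30.8 and 34.3 and 224, 76.3, 19.2, 88.6 and 39.9 in den libraries, against 1.09, 9.41, 6.44 and 17.6 and 5.44, 0, 3.22 and 11 in sham libraries (adjusted p = 0.0101 and 0.00314, the second at 0.0692 in limma voom on reads recovered from the values). Pax7, the satellite cell factor, had 44.2 to 106 in den and 60.1 to 104 in sham libraries (adjusted p = 0.559).

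Class IIa histone deacetylases and their partners split, with 4 of 11 rising and 7 falling. In mouse muscle Hdac4 is known to repress Dach2, itself a repressor of Myog. Hdac4 had 6114, 5853, 5891, 6421 and 6681 in den and 886, 898, 916 and 967 in sham libraries (log2 difference 2.75 ± 0.08, adjusted p = 8.21e-22), with little spread in either group. Dach2 was near the limit of detection, with 0.858, 6.93, 4.81, 0.933 and 1.59 in den and 21.5, 28.2, 33.3 and 18.7 in sham libraries (adjusted p = 8.69e-06). Hdac9, a relative that innervation maintains, fell to 10.3 to 30.9 in den, against 63.4 to 100.3 in sham libraries. Sik1, a kinase that holds these deacetylases in the cytoplasm, rose to 4542 to 6006 in den, against 621, 992, 1272 and 2683 in the sham libraries, which ranged widely. Camk2a, a calcium-activated kinase, fell to 1433 to 2408 in den, against 9427 to 11364 in sham libraries (adjusted p = 1.61e-12).

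Of 21 fibre-type and other transcription factors 8 rose and 8 fell (10 and 5 with equal sums). Runx1, which is known to be induced in denervated muscle and to restrain wasting there, had 3009, 3042, 2845, 2948 and 3255 in den and 50.6, 89.4, 51.5 and 47.4 in sham libraries (log2 difference 5.68 ± 0.19, adjusted p = 1.83e-14). Tead4, a partner of YAP and target of MyoD, was 8.34-fold (659.6 to 1156 in den against 89.3 to 119 in sham muscle). Maf, a large Maf factor that drives the type IIB program, had 1019, 861, 1003, 838 and 1119 in den, against 3545, 3776, 3326 and 5169 in sham libraries (adjusted p = 3.08e-14).

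Protein breakdown runs largely through the proteasome, whose genes rose together. All 31 subunits tested rose, each with every den library above every sham library, which held for 22.8% of all genes. The median log2 difference was 1.22, and the members ranged between 0.56 (Psmd8, of the regulatory lid) and 1.73 (Psma7, of the core ring). Psma7 had 4239, 4410.4, 4634, 5748 and 4687 in den and 1528, 1342, 1534 and 1289 in sham libraries (adjusted p = 1.52e-16). The subunits took 1.0% ± 0.081 of all values in den and 0.343% ± 0.014 in sham muscle.

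Of 20 ubiquitin ligases that mark proteins for it 7 rose and 9 fell, but 10 rose and 3 fell with equal sums (median log2 difference −0.10, 0.20 with equal sums). Fbxo32, atrogin-1, had 36406, 30232, 41107, 44486 and 43965 in den and 22513, 16737, 21390.5 and 15175 in sham libraries (log2 difference 1.05 ± 0.20, adjusted p = 1.92e-04). Trim63, MuRF1, which targets myosin, had 30399.6, 30123, 37709, 49183 and 39839 in den and 23102, 14087, 22787 and 15694 in sham libraries (log2 difference 0.995 ± 0.23, adjusted p = 0.00138). Both groups stood apart in each gene, with means 2.07 and 1.98 times the sham mean. Fbxo30, MUSA1, a ligase restrained by BMP signalling, was 3.07-fold (656 to 929 in den against 226 to 286 in sham muscle), and Mdm2, the ligase of p53, 2.85-fold. Kbtbd13, a cullin adaptor of the sarcomere, fell most, with 29.2, 32.9, 21.6, 27.1 and 30.3 in den and 291, 252, 181 and 254 in sham libraries (adjusted p = 4.52e-14).

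Of 19 calpain, caspase and deubiquitinase genes 13 rose and 3 fell. Uchl1, a deubiquitinase best known from neurons, had 1408, 1573, 1197, 2082 and 891 in den and 81.5, 149, 131 and 108 in sham libraries (12.2-fold, adjusted p = 9.67e-10). Capn3, the muscle calpain bound to titin, fell to 733 to 1146 in den, against 2859 to 3267 in sham libraries (adjusted p = 4.46e-11). Of 31 autophagy and lysosome genes 19 rose and 5 fell (median 0.29). Ctsl, the lysosomal protease cathepsin L, had 8407, 8209, 7947, 8525 and 8790.3 in den and 1809, 1628, 1795 and 1554 in sham libraries (log2 difference 2.31 ± 0.07, adjusted p = 1.60e-20), and Map1lc3a, which coats autophagosomes, was 3.5-fold. Tfeb, a transcription factor for these genes, fell to 703 to 1067 in den, against 1675 to 1749 in sham libraries (adjusted p = 2.01e-10). In the endoplasmic reticulum stress list 16 of 27 rose and 5 fell. Derl1, which exports misfolded proteins for breakdown, was 3.21-fold, while Chac1, a glutathione-degrading target of ATF4, had 739, 513, 1077, 2207 and 1328 in den and 3791, 2909, 3389 and 2430.2 in sham libraries (adjusted p = 5.96e-04).

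Genes of protein synthesis rose too. Of 39 ribosome biogenesis genes 36 rose and 0 fell, with a median log2 difference of 0.71, and all 39 rose with equal sums. Utp18 and Bop1, which process the ribosomal RNA precursor, were 3.37-fold (379 to 468 in den against 119 to 134 in sham muscle) and 2.82-fold (1331 to 1546 in den against 492 to 525 in sham muscle). Of 20 translation genes 15 rose and 3 fell, and the members that fell included muscle-specific copies. Rpl3, a ribosomal protein of all tissues, had 5086, 4867, 4802, 5644 and 4717 in den and 1264, 1155, 1336 and 1314 in sham libraries (log2 difference 1.99 ± 0.07, adjusted p = 1.53e-19), while Rpl3l, its replacement in adult striated muscle, had 485, 638, 661, 792 and 669.6 in den and 9004, 7778, 7729.9 and 7623 in sham libraries (log2 difference −3.64 ± 0.12, adjusted p = 1.80e-16). Per kilobase of exon Rpl3 stood at 1582 and Rpl3l at 395 in den muscle, against 399 and 4889.6 in sham muscle, which reversed their order. Eef1a1, the common elongation factor, rose to 26694 to 34689.9 in den, against 8162 to 9427 in sham libraries, and Eef1a2, its copy in adult muscle and neurons, fell to 20125 to 30936 in den, against 31890.2 to 36606 (adjusted p = 1.14e-16 and 1.04e-04).

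**Figure D3:**
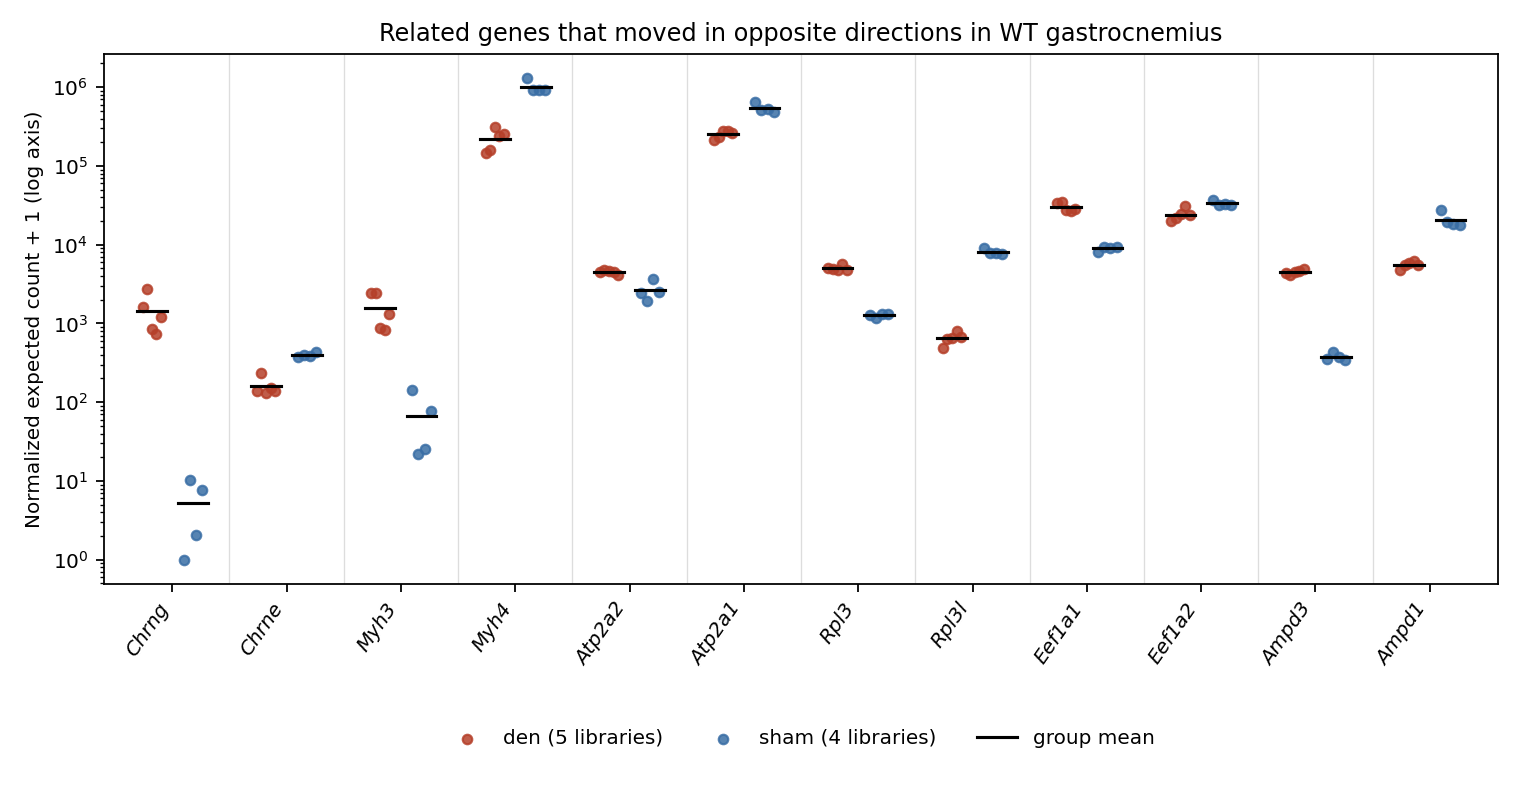
Normalized expected count + 1 (log axis) in each WT library, 5 den and 4 sham, for 6 pairs of related genes, with bars for group means. The pairs were chosen with their values known, as ones whose members moved in opposite directions. The left member, of immature or slow muscle or of other tissues, was higher in den than in sham libraries. The right member, of adult or fast muscle, was lower. Ampd3, for example, had 4064 to 4953 in den and 347 to 433 in sham libraries.

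Of 23 heat shock proteins and chaperones 11 rose and 5 fell (15 and 3 with equal sums). The small heat shock proteins Hspb7 and Hspb8, which guard filamin and other sarcomere proteins, were 5.62-fold (28949 to 34400.4 in den against 5214 to 6058 in sham muscle) and 5.41-fold (37018 to 46217 in den against 6996 to 8669 in sham muscle), and the cytosolic Hsp90ab1 2.69-fold. Smyd1, a muscle methyltransferase that assists myosin folding, fell to 2913 to 3491 in den, against 10272 to 12244 in sham libraries (adjusted p = 3.24e-16).

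Of 16 p53 targets and growth arrest genes 11 rose and 2 fell (median log2 difference 0.89). Gadd45a, a stress protein known to be needed for muscle wasting in mice, had 20606, 23501, 21378, 29664 and 23392 in den and 589, 744, 895 and 717 in sham libraries (log2 difference 5.01 ± 0.14, adjusted p = 6.68e-17). Cdkn1a, the cell cycle inhibitor p21, had 7222, 9514, 6067, 6904 and 7926 in den and 644, 542, 852 and 874 in sham libraries (adjusted p = 1.84e-09). Eda2r, a TNF-family receptor, was 12.1-fold, with 8001, 7242, 7114, 7235 and 6975 in den and 661, 651, 546 and 566 in sham libraries, and Bbc3, the death factor PUMA, 7.59-fold. The cell cycle list showed 5 of 23 genes rising and 2 falling, and 3 rising without den library 1, 2 or 5 or sham library 3. Among all genes tested 26.9% rose and 25.7% fell. Rrm2, which makes deoxynucleotides, was 12.1-fold (174 to 239.5 in den against 13.2 to 21.2 in sham muscle), while Mki67, found in dividing cells, had 14.9 to 31.3 in den and 13.1 to 48.3 in sham libraries (adjusted p = 0.725).

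Genes of insulin and growth factor signalling changed in both directions. Of 25 genes 10 rose and 7 fell (14 and 5 with equal sums). The kinases Akt1 and Akt2 were 4.71-fold (4726 to 5677 in den against 1028 to 1165 in sham muscle) and 2.93-fold (12436 to 15883 in den against 4392 to 5077 in sham muscle). Irs1, the docking protein upstream of them, had 124, 162, 123, 104 and 109 in den and 462, 495, 449 and 532 in sham libraries (adjusted p = 2.19e-13). Downstream, Tbc1d4, which controls the release of glucose transporters, fell to 102 to 129.6 in den, against 667 to 855 in sham libraries. Slc2a4, the transporter GLUT4 itself, fell to 4553 to 5351 in den, against 17329 to 19054. Inpp5k, a phosphatase of the phosphoinositides that relay the insulin signal, had 1449.97, 1319.9, 1323, 1386 and 1226 in den and 786, 802, 709.8 and 676 in sham libraries (1.8-fold, adjusted p = 2.94e-10). Of 17 mTOR genes 7 rose and 6 fell (10 and 3 with equal sums). Mtor, the kinase, was 2.13-fold and Deptor, which binds and inhibits it, 1.36-fold (2235, 2766, 2092, 2012 and 2212 in den and 1532, 1794, 1537 and 1773 in sham libraries, adjusted p = 2.99e-04). Ddit4, an inhibitor induced by stress and glucocorticoids, fell to 1912, 3249, 2865, 6467 and 6172 in den, against 10898, 8779.9, 15042 and 16806 in sham libraries (adjusted p = 5.29e-04). In the FoxO and glucocorticoid list, which shares Ddit4, Gadd45a and Cdkn1a with those above, 4 of 16 rose and 9 fell (5 and 6 with equal sums).

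In myostatin, activin and BMP signalling 8 of 29 genes rose and 11 fell (11 and 8 with equal sums, median −0.21, 0.10 with equal sums). Of all genes tested 26.9% rose and 25.7% fell. Gdf5, a BMP-type ligand known to limit wasting of denervated muscle in mice, had 279, 399, 240.2, 273 and 279 in den and 0, 2.64, 0 and 0 in sham libraries (log2 difference 7.72 ± 0.36, adjusted p = 9.74e-17). The sham group rested on the reads of 1 library, so no fold is given. Mstn, myostatin, which limits muscle size, had 353, 299, 507, 433 and 495 in den and 2201, 2329, 1602 and 2257 in sham libraries (log2 difference −2.34 ± 0.17, adjusted p = 1.62e-09), and its receptor Acvr2b fell to 15.9 to 22.4 in den, against 65.5 to 93.7 in sham libraries. Fst, follistatin, which binds these ligands, was 2.45-fold (adjusted p = 8.29e-07).

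Of 15 genes of RANK, TNF receptors and NF-kappaB 7 rose and 3 fell. Nfkb2 and Relb, subunits of the alternative NF-kappaB pathway, had 2274, 1819, 2203, 2980.2 and 2311 and 835, 813, 1032, 1290.3 and 980.5 in den, against 289, 279.6, 321 and 318 and 192, 220.00, 215 and 198 in sham libraries (adjusted p = 2.35e-19 and 5.14e-15). Tnfrsf12a, the TWEAK receptor Fn14, was 5.0-fold (1445 to 2022 in den against 303 to 389 in sham muscle). Tnfrsf11b, which encodes OPG, the decoy receptor of RANKL, was close to 0, with 5.15, 1.73, 3.21, 5.6 and 6.38 in den and 2.18, 1.18, 2.15 and 5.51 in sham libraries, and a difference was not detectable at this depth (adjusted p = 0.303). Among 17 genes of gp130 cytokine signalling 6 rose and 5 fell (9 and 2 with equal sums), and 2 fell without the sham pair. Stat5a, a signal carrier, was 2.76-fold, and Jak2, the kinase upstream of it, 0.339-fold (adjusted p = 3.04e-11 and 1.74e-15).

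Genes that follow activity and the time of day shifted. Of 22 immediate early genes 1 rose and 12 fell (3 and 9 with equal sums). Nr4a1, a nuclear receptor induced by contraction, had 474, 493, 523, 691 and 737 in den and 7935, 8195, 9136 and 13403 in sham libraries (log2 difference −4.04 ± 0.24, adjusted p = 2.81e-10). Fos had 124, 142, 95.4, 146 and 82.9 in den and 906, 695, 699 and 623 in sham libraries, and Dusp1, a phosphatase of stress kinases, 735, 814, 693, 591 and 902 in den and 6371, 4313, 4728 and 6241 in sham libraries (adjusted p = 1.85e-04 and 7.68e-07). Of 19 clock genes 7 rose and 9 fell (10 and 7 with equal sums). Arntl, the activator BMAL1, was 2.63-fold (458 to 592 in den against 158 to 249 in sham muscle), and Nfil3, a repressor in the clock's output, fell to 240.4 to 413 in den, against 972 to 1290.05 in sham libraries. Among 14 genes of secreted muscle factors 3 rose and 7 fell. Ostn, musclin, a hormone made with activity, had 12, 17.3, 15.2, 15.9 and 17.5 in den and 652, 648, 707 and 855 in sham libraries (log2 difference −5.43 ± 0.31, adjusted p = 3.31e-12). Fgf21, a hormone of stressed muscle and liver, had 7.73, 5.2, 1.6, 14 and 3.99 in den libraries and was at 0 in all sham libraries (adjusted p = 9.27e-05). Vegfa, the growth factor of capillaries, had 1427, 1520.1, 1293, 1304 and 1491 in den and 4458, 4732, 5318 and 5143 in sham libraries (adjusted p = 2.00e-16), and Metrn, a secreted factor known from glia, fell to 122 to 200.4 in den, against 605 to 659 in sham libraries.

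Among 6 DNA methylation enzymes 0 rose and 2 fell (2 and 2 with equal sums). Tet2, which oxidizes methylcytosine, had 423, 498, 358, 382 and 388 in den and 348, 384, 440.3 and 393 in sham libraries. Both groups overlapped (log2 difference 0.06 ± 0.10, adjusted p = 0.635), and the gene was called higher with equal sums (log2 difference 0.37, adjusted p = 0.00849). Its relative Tet3 had 279.9 to 434 in den and 677 to 831 in sham libraries, and the methyltransferase Dnmt3a 475 to 608 in den and 1002 to 1186 in sham libraries (adjusted p = 3.01e-10 and 2.62e-11). Rbm3, an RNA-binding protein induced by cold, had 2830.4, 2792, 2791, 3086 and 2488 in den and 1525, 1431, 1156 and 1153 in sham libraries (log2 difference 1.10 ± 0.10, adjusted p = 1.92e-10), in a list of which 8 of 14 rose and 4 fell (9 and 2 with equal sums). Of 21 imprinted genes 6 rose and 9 fell (median −0.26, 0.03 with equal sums), where 26.9% and 25.7% of all genes did. H19, a noncoding RNA of fetal tissues, had 38535, 46311, 34908, 33916 and 35359 in den and 4953, 4381, 4231 and 4737 in sham libraries (log2 difference 3.04 ± 0.15, adjusted p = 5.71e-13), while its neighbour Igf2 did not pass, with 160.5 to 485 in den and 271 to 326 in sham libraries (adjusted p = 0.512, and 0.0202 without den library 1). The zinc finger genes Peg3 and Zim1 of another imprinted cluster were 4.02-fold and 4.38-fold, and the noncoding Meg3 0.515-fold. Of 18 other long noncoding RNAs and snoRNA hosts 3 rose and 3 fell (4 and 1 with equal sums).

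Most genes fell in the lists of glycolysis, glycogen, ATP buffering, oxidative phosphorylation, the tricarboxylic acid cycle and fatty acids. Of 24 glycolysis genes 19 fell and 2 rose (median log2 difference −1.04), and 15 fell and 3 rose with equal sums. Eno3, the muscle enolase, had 4826, 5185, 6334, 5513 and 6104 in den and 118484, 98889, 101931 and 99126 in sham libraries (log2 difference −4.23 ± 0.09, adjusted p = 1.95e-24), and Tpi1, triose phosphate isomerase, 2472 to 3375 in den and 35748 to 42546 in sham libraries. The lactate exporter Slc16a3 had 365, 523, 464, 746 and 522 in den and 12338, 11373, 11637 and 13067 in sham libraries (log2 difference −4.56 ± 0.19, adjusted p = 1.47e-12), and Pfkfb1, which sets the speed of glycolysis, fell by 4.47 on the log2 scale (63.3 to 84 in den and 1441 to 1849.9 in sham libraries). Aldoa and Gapdh fell less, to 0.501 and 0.383 times the sham mean.

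Glycogen genes fell for 10 and rose for 3 of 16, and 9 fell and 4 rose with equal sums. Pygm, the phosphorylase that breaks glycogen down, had 37619 to 47993 in den and 185840.00 to 227485 in sham libraries, and Ppp1r3c, which brings a phosphatase to glycogen to favour synthesis, 1422, 1477, 1485, 1244 and 1487 in den and 25075, 18128, 20864 and 21578 in sham libraries (log2 difference −3.90 ± 0.13, adjusted p = 1.82e-16). Stbd1, which ties glycogen to membranes, rose to 2259.5 to 2837 in den, against 639 to 734 in sham libraries (adjusted p = 1.35e-10). In the buffering of ATP 10 of 12 genes fell and 2 rose, and 9 fell and 2 rose with equal sums. Ckm had 120057, 138286, 175946, 196181 and 166366 in den and 506654, 439316, 437019 and 428463 in sham libraries, and Ckmt2, its mitochondrial partner, 2061 to 2409.8 in den and 16159.8 to 22437 in sham libraries (adjusted p = 1.60e-10 and 2.86e-18). Ampd3, an AMP deaminase of other tissues, had 4358, 4064, 4505, 4679 and 4953 in den and 355, 433, 377 and 347 in sham libraries (log2 difference 3.58 ± 0.10, adjusted p = 3.43e-22), while Ampd1, the muscle form, fell to 4768 to 6281 in den, against 17730.00 to 27895 in sham libraries (adjusted p = 3.79e-08).

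Nearly all genes of mitochondrial DNA and oxidative phosphorylation fell. All 13 transcripts of mitochondrial DNA fell (log2 differences of −1.40 to −0.78, median −1.01). Oxidative phosphorylation genes of the nucleus fell for 46 and rose for 1 of 49 members (median −0.77, −0.47 with equal sums). With equal sums 38 fell and 3 rose. Cox7a1, the muscle form of a cytochrome oxidase subunit, fell most, with 346, 419, 390.3, 566 and 450.4 in den and 2122, 1829, 2217 and 2139 in sham libraries (log2 difference −2.27 ± 0.14, adjusted p = 1.96e-11). Cox8a, the form of other tissues, was the 1 member that rose without this scaling (625 to 965 in den against 455 to 651 in sham muscle, adjusted p = 0.00566). Of 21 genes of the tricarboxylic acid cycle 20 fell and 0 rose, and 18 fell and 1 rose with equal sums. The largest fall was that of Idh2, the mitochondrial isocitrate dehydrogenase (445 to 606 in den against 2431 to 3959.8 in sham muscle). Of 25 fatty acid genes 19 fell and 2 rose, and 13 fell and 3 rose with equal sums. Acaa2 and Cpt1b, of the breakdown and import of fatty acids, stood at 0.274 and 0.304 times the sham mean. Perm1, a muscle regulator induced by PGC-1 and ERR, had 96.1, 148, 106, 71.8 and 95.7 in den and 3129.8, 2794, 2950.00 and 2793 in sham libraries (log2 difference −4.84 ± 0.16, adjusted p = 5.35e-16). Esrra, the receptor ERR-alpha, fell to 903 to 1001 in den, against 2045 to 2377 in sham libraries, whereas Ppargc1a, PGC-1-alpha, did not pass (406 to 574 in den and 485 to 593 in sham libraries, adjusted p = 0.406). Their list had 9 of 19 genes falling and 1 rising, but 8 falling and 7 rising with equal sums.

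Polyamine metabolism held a pair of very large losses in a list with 3 of 13 genes rising and 5 falling (6 and 4 with equal sums). Amd1, the decarboxylase that supplies spermidine and spermine synthesis, had 944, 976, 1135, 1356 and 1034 in den and 41739.8, 43958, 31818 and 41700.1 in sham libraries (log2 difference −5.19 ± 0.13, adjusted p = 6.92e-19). Smox, which oxidizes spermine and is known to maintain fibre size in mice, had 459, 424, 611, 675 and 531 in den and 15474, 15470.4, 14921 and 16552 in sham libraries (log2 difference −4.87 ± 0.12, adjusted p = 7.47e-20). Amd2, a nearly identical copy of Amd1 whose reads cannot be assigned with certainty, had 7.61 to 19.5 in den and 342 to 548 in sham libraries. Odc1, the enzyme that starts the pathway, had 5839, 6220.04, 8777, 9102 and 8165 in den and 6287, 6095, 4892 and 5975 in sham libraries, and its call (adjusted p = 0.0399) was lost without den library 3, 4 or 5 or without sham library 3, 4 or 5 (log2 difference 0.29 to 0.40, adjusted p 0.0522 to 0.13).

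Among 17 amino acid transport and glutamine genes 4 rose and 9 fell (8 and 7 with equal sums). Slc7a5, the leucine transporter LAT1, had 581, 562, 549.8, 558 and 714 in den and 55.3, 99.999, 93.4 and 75 in sham libraries, and Slc7a2, an arginine and lysine transporter, 357, 393, 308, 285 and 346 in den and 3548, 3399.9, 3615 and 3595 in sham libraries (log2 differences 2.89 ± 0.14 and −3.39 ± 0.13, adjusted p = 9.31e-16 and 6.27e-16). Of 24 genes of antioxidant defence 14 rose and 4 fell (18 and 2 with equal sums), among them the metal-binding Mt2 (7309, 7878, 6611, 11178 and 11789 in den and 670.2, 842, 794 and 1175 in sham libraries) and Txnip, an inhibitor of thioredoxin that also limits glucose uptake (6579.98 to 10224 in den and 19079 to 23878 in sham libraries). Of 21 cholesterol and lipid synthesis genes 4 rose and 7 fell, but 9 rose and 6 fell with equal sums (median −0.08, 0.22 with equal sums), and Srebf2, a master factor of cholesterol synthesis, was 3.03-fold (adjusted p = 1.88e-14).

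**Figure D4:**
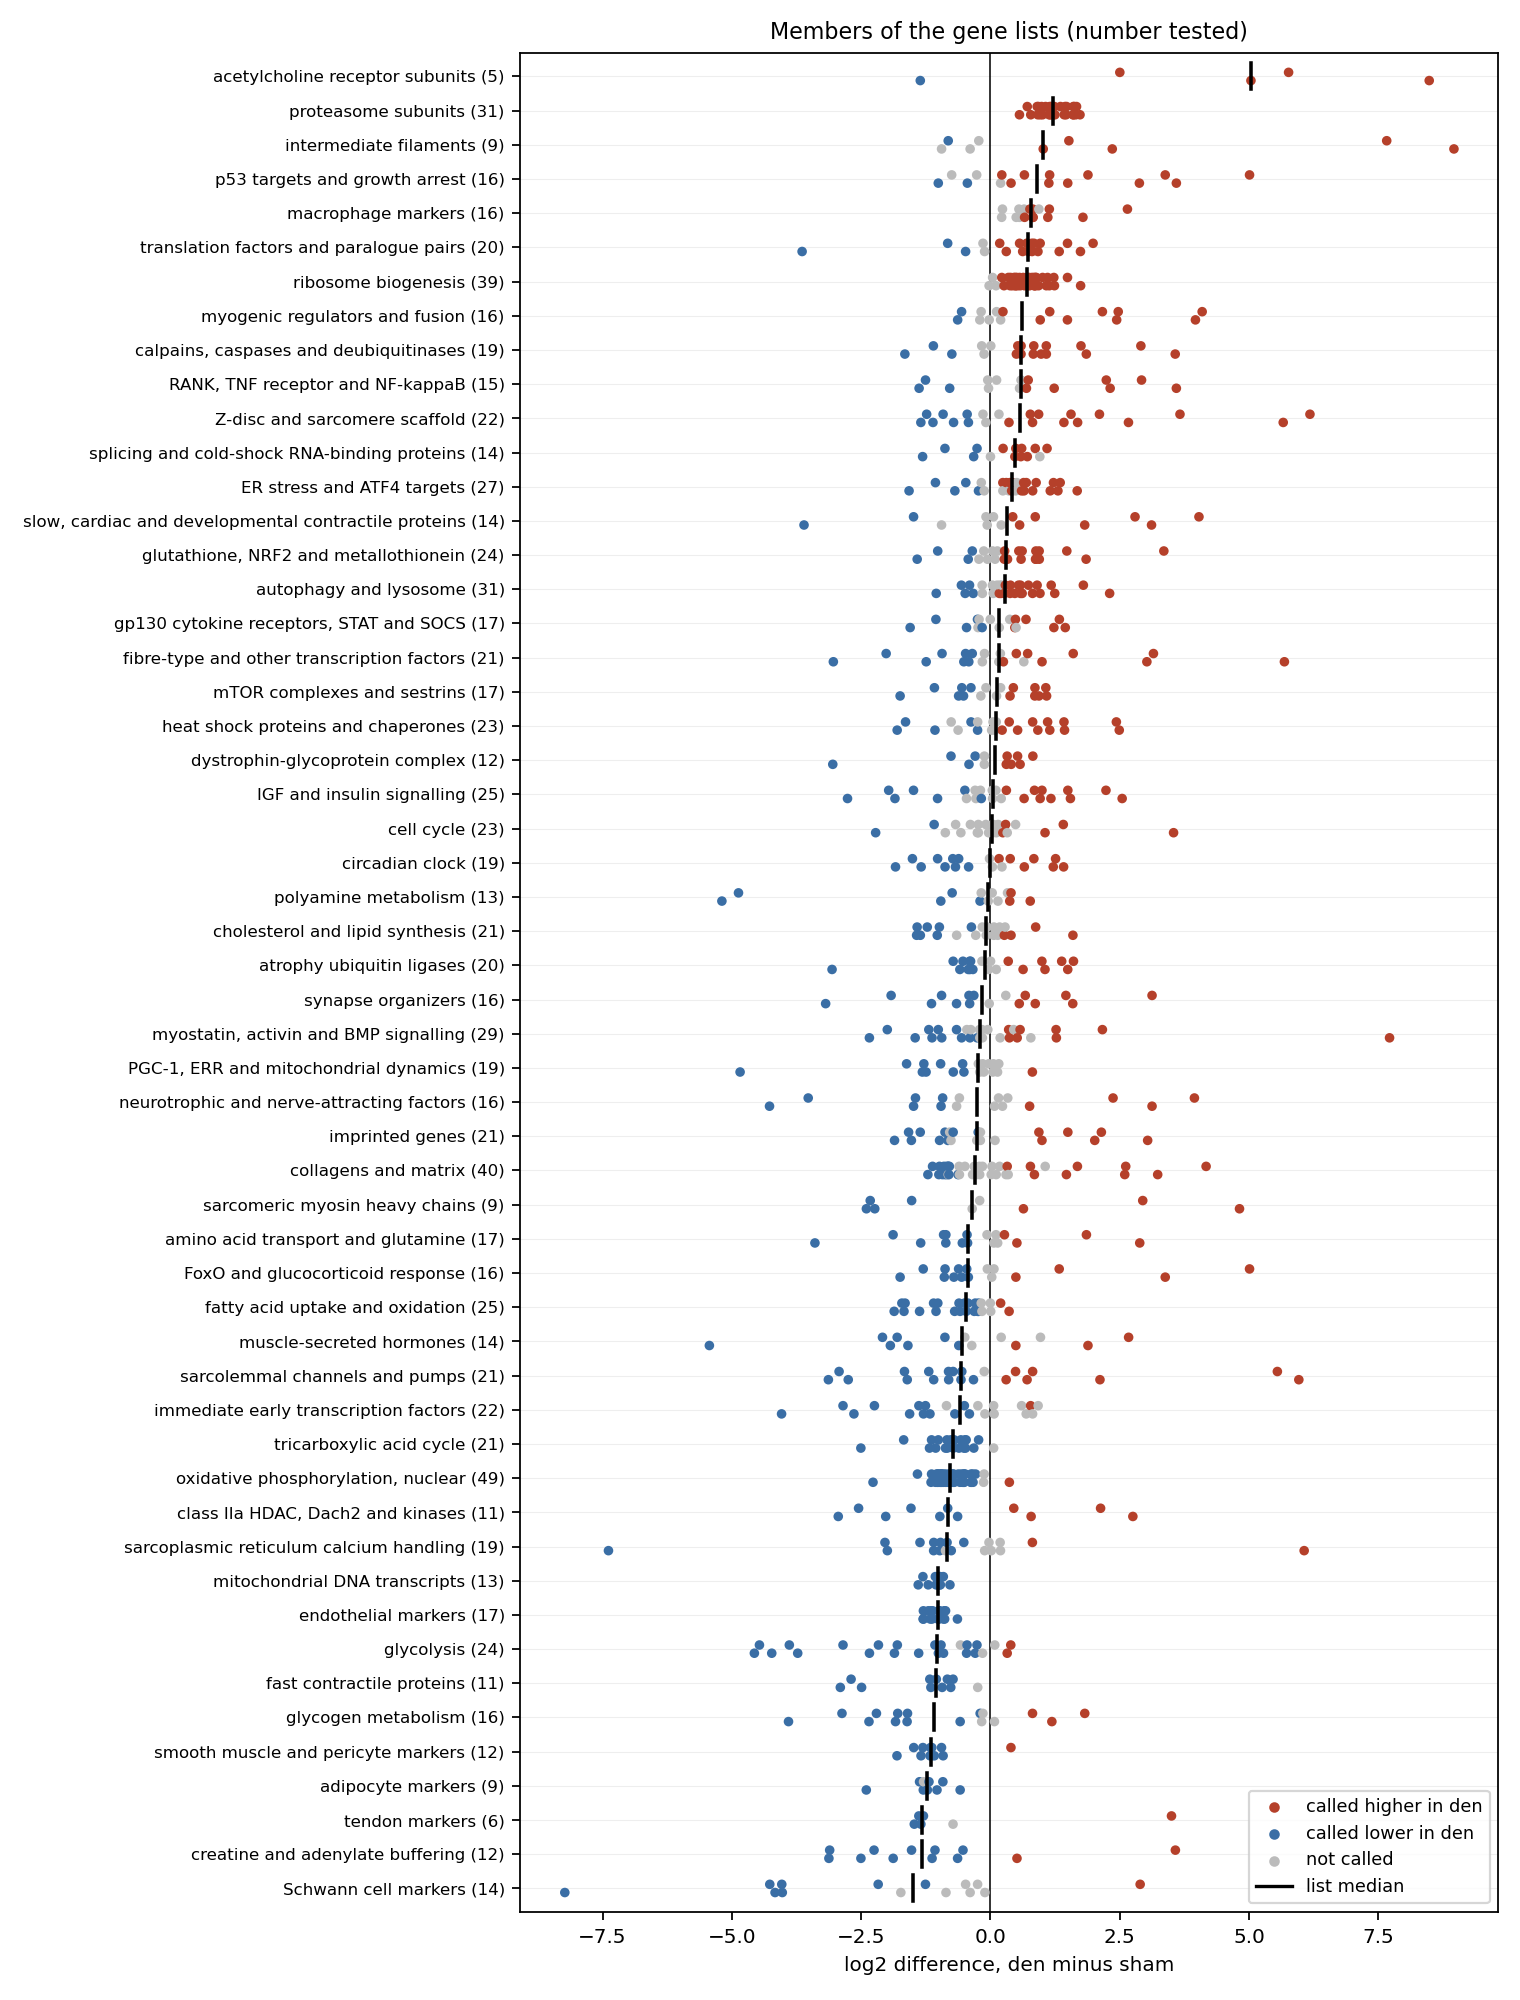
Log2 difference, den minus sham (x axis), of every tested member of 54 gene lists (y axis, with the number tested), ordered by the list's median (black line). Colours mark members called higher or lower in den muscle at an adjusted p under 0.05 or not called. Proteasome subunits all lay right of 0 and mitochondrial DNA transcripts all lay left of it, while lists such as the ubiquitin ligases spread to both sides.

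The tissue also holds cells other than fibres, and in bulk muscle fewer cells of a type and less RNA per cell cannot be told apart. The label was borne out by the abundance of Acta1, Ckm and Myh4 in every library, and the 10 markers of skeletal muscle took 8.59% ± 0.71 of all values in den and 14.5% ± 0.95 in sham muscle. Of 14 Schwann cell markers 7 fell and 1 rose, and their summed level was 904 to 1569 in den and 1807 to 7159.7 in sham libraries. Prx, periaxin of the myelin sheath, had 25.8, 21.7, 16.8, 21.5 and 24.7 in den and 200.4, 441, 653 and 327 in sham libraries (adjusted p = 9.99e-11). The sham pair was the lowest and library 4 the highest of the sham values. Ngfr, a receptor of Schwann cells without myelin, had 215, 192, 434, 96.1 and 151 in den and 16.8, 18.8, 197 and 5.51 in sham libraries, which overlapped (adjusted p = 0.00767, and 0.0512 in limma voom). Mbp had 430.1, 435, 458, 486 and 451 in den and 279, 1133, 1690.3 and 845 in sham libraries (adjusted p = 0.0677, and 0.000156 without the sham pair). Cntnap2, which arranges potassium channels along myelinated axons, had 0, 0.867, 0, 0 and 1.59 in den and 170.5, 162, 83.8 and 127 in sham libraries.

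All 17 endothelial markers fell, with a median log2 difference of −1.01 (−0.71 with equal sums) and summed levels of 6811 to 8619 in den and 14998 to 16965 in sham libraries. Pecam1, an adhesion protein of vessel walls, had 839.6, 871, 935, 776 and 985 in den and 1684, 1538, 1736 and 1644 in sham libraries, and Kdr, the main receptor of Vegfa, 201, 252, 222, 188 and 270.2 in den and 526, 479, 551 and 684 in sham libraries (adjusted p = 9.75e-10 and 3.99e-09). Of 12 smooth muscle and pericyte markers 11 fell and 1 rose (summed 9642 to 12658 in den and 15578 to 16042 in sham libraries). Of 9 adipocyte markers 8 fell, and 4 with equal sums, with Ucp1 at 0 throughout (summed 2209.7 to 2969 in den and 4675 to 5510.3 in sham libraries). Adipoq, adiponectin, had 59.2, 32.9, 87.4, 54.1 and 27.9 in den and 85.9, 152, 94.5 and 123 in sham libraries, groups that overlapped at the edge (adjusted p = 0.0176, 0.0709 with equal sums and 0.0562 without sham library 3). Without that library 5 in place of 8 adipocyte markers fell.

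Of 16 macrophage markers 9 rose and 0 fell (median 0.79, summed 3223 to 7224 in den and 2433 to 3717 in sham libraries), though 14 rose with equal sums, 5 without den library 1 and 3 without the sham pair. Cd68, a lysosomal protein of macrophages, had 428, 471, 238, 252 and 273 in den and 36, 60.00, 50.5 and 57.3 in sham libraries (log2 difference 2.65 ± 0.26, adjusted p = 2.87e-08), while Lyz2, lysozyme, had 2175, 1704, 1849, 941 and 1173 in den and 813, 1159, 1071 and 1257 in sham libraries (adjusted p = 0.158, and 0.0435 with equal sums). Of 8 neutrophil and mast cell markers 1 rose. It was S100a8, with 252, 286, 239.7, 185 and 232 in den and 2.18, 1.18, 12.9 and 36.4 in sham libraries (adjusted p = 2.90e-04), whereas S100a9, its partner in the calprotectin complex, had 5.15, 1.73, 4.81, 1.87 and 16.7 in den and 7.62, 4.71, 10.7 and 40.8 in sham libraries (adjusted p = 0.4). Of 9 lymphocyte markers 1 fell, Cd3e of the T cell receptor, at 0, 0, 0.802, 0 and 0 in den and 8.12, 22.4, 5.37 and 20.9 in sham libraries, while Cd3g was at 0 in every library. In that list 2 fell without the sham pair, and 1 rose without den library 1 or 2 or sham library 5. Satellite cell markers rose for 2 and fell for 4 of 11 (summed 3004 to 3919 in den and 2683 to 2906 in sham libraries; 3 and 3 with equal sums). Markers of fibro-adipogenic progenitors rose for 1 and fell for 6 of 11 (summed 11142 to 16437 in den and 14647 to 19355 in sham libraries; 1 and 1 with equal sums), and 0 rose without den library 1 or 3, the sham pair or sham library 3 or 4. Red blood cell markers rose for 0 and fell for 1 of 5 (summed 2279.8 to 5491 in den and 4962 to 8969.97 in sham libraries; 0 fell with equal sums, and 0 to 4 when single libraries were left out). Neuron markers rose for 0 and fell for 1 of 5 (summed 27.1 to 66.5 in den and 54.1 to 77.3 in sham libraries; 1 and 1 with equal sums), and 1 rose without sham library 4. The part of these cells in the results above was not tested.

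**Figure D5:**
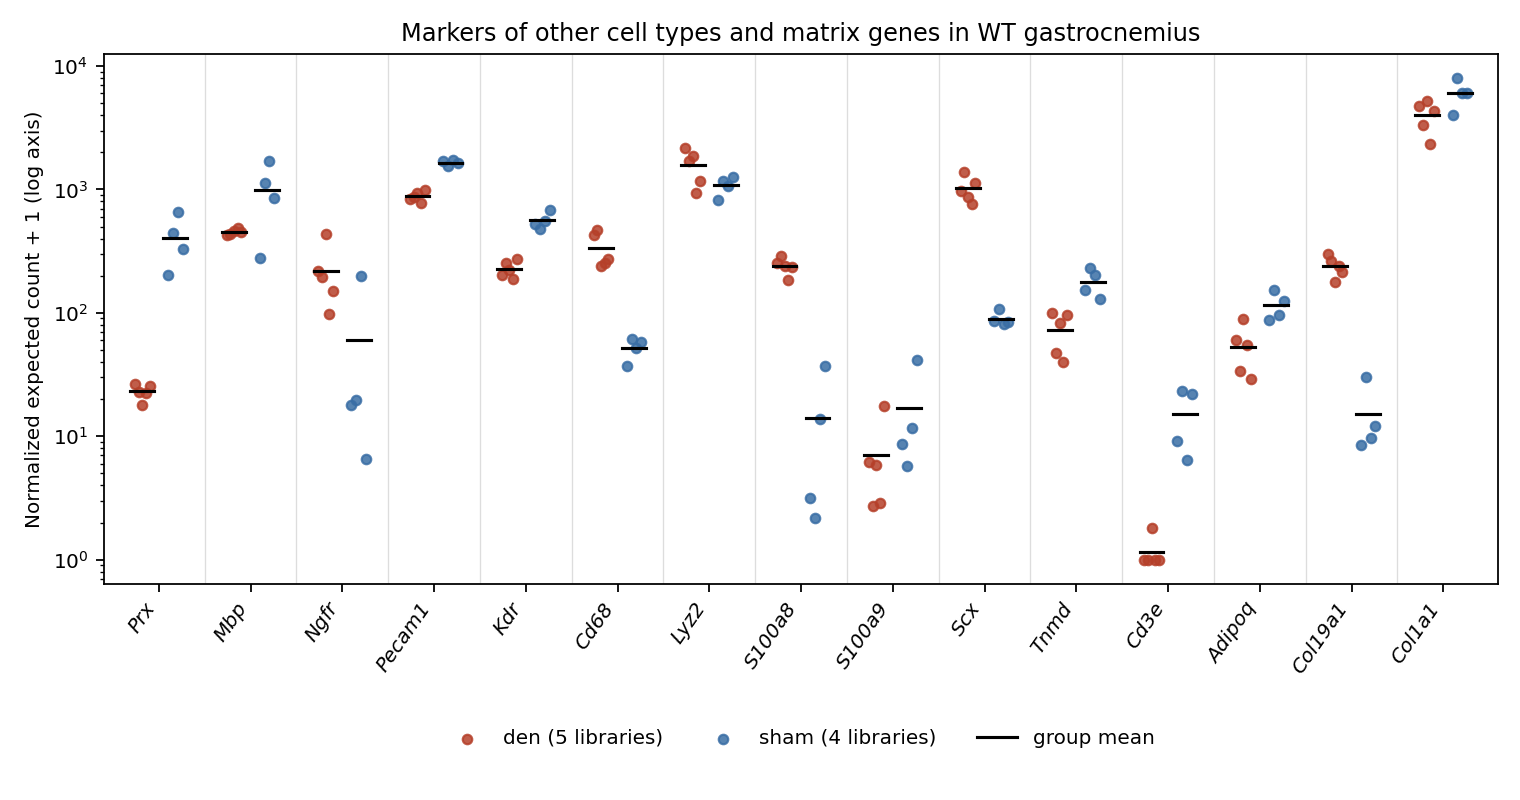
Normalized expected count + 1 (log axis) of 15 genes of Schwann cells, vessels, blood-derived cells, tendon, fat and matrix in each WT library, 5 den and 4 sham, with bars for group means. Prx lay lower in every den library than in any sham library, while Mbp and Col1a1 overlapped between the groups.

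Of 6 tendon markers 4 fell and 1 rose (summed 1936 to 3544 in den and 3382 to 6095 in sham libraries). The exception was Scx, scleraxis, the transcription factor of tendon cells, with 979, 1394, 866, 766 and 1127 in den and 84.2, 106, 79.5 and 83.8 in sham libraries (log2 difference 3.50 ± 0.23, adjusted p = 3.73e-10), while Tnmd, tenomodulin, had 39.2 to 99.6 in den and 128 to 232 in sham libraries (adjusted p = 0.00344). Of 40 collagen and matrix genes 9 rose and 14 fell (11 and 11 with equal sums, median −0.29, 0.01 with equal sums). Col19a1, a collagen of basement membranes and synapses, had 301, 261, 177, 241 and 214 in den and 7.45, 29.4, 8.59 and 11 in sham libraries (adjusted p = 3.48e-10). Timp1, an inhibitor of matrix proteases, was 7.9-fold (56.9 to 93.3 in den against 2.18 to 23.5 in sham muscle), and Postn, periostin, which binds collagen, 3.24-fold (425 to 1015 in den against 165 to 323 in sham muscle). The fibrillar Col1a1 and Col3a1 did not pass (2341 to 5184 and 3039 to 8186 in den, against 4014 to 7959 and 3993 to 7789.9 in sham libraries, adjusted p = 0.236 and 0.761), and Col6a1, of the network around fibres, fell to 605 to 1192 in den, against 1592 to 2031 in sham libraries (adjusted p = 0.00124).

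Some of the named genes with the largest differences belonged to no list. Orm2, an acute-phase plasma protein, had 178, 235, 159.5, 114 and 162 in den and 0, 2.35, 0 and 0 in sham libraries, Ces2c, a carboxylesterase, 789, 1046, 983, 1358 and 1263 in den and 3.26, 15.3, 17.2 and 15.4 in sham libraries, and Clca1, of a family that regulates chloride conductance, 284, 276, 200.4, 302 and 163 in den and 3.26, 3.53, 2.15 and 1.1 in sham libraries. These belong to gene families whose reads may be shared among copies. Cd101, an immunoglobulin-type membrane protein of leukocytes, had 145, 140.4, 119, 162 and 140.3 in den and 0, 3.53, 0 and 3.31 in sham libraries. All stood wholly above sham, which the rule that named them required (adjusted p = 1.49e-15, 9.74e-10, 1.34e-16 and 1.15e-08 in that order). On the other side, Mlf1, a protein known from leukaemia, had 117, 105, 100.2, 89.6 and 87.7 in den and 4449, 4142, 4446 and 3956 in sham libraries. Smco1, a membrane protein of striated muscle, had 22.3, 14.7, 23.2, 18.7 and 16.7 in den and 1027, 927, 890.3 and 966 in sham libraries, and Odf3l2, named for a sperm tail protein, 7.73, 25.1, 17.6, 42.9 and 63.8 in den and 4166, 2912, 2954 and 3445 in sham libraries. The adjusted p of these was 4.61e-22, 1.93e-22 and 7.28e-09 in that order. Gdf1, whose transcript overlaps that of the ceramide synthase gene Cers1, had 0 to 3.38 in den and 78.2 to 121 in sham libraries, and its reads cannot be assigned with certainty.

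Every named DEG kept its direction when any den or sham library was left out. For genes whose den and sham libraries did not overlap, no other outcome was possible. The response of each gene was also set against that in Opg-/- muscle by the interaction of genotype and denervation. Of 17948 genes 1 passed (0.00557%), Tet2, with 1249 genes at an unadjusted p under 0.05.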

How the data were processed

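Total RNA of gastrocnemius muscle was sequenced by the authors from non-strand-specific libraries, 5 in each of 4 groups. Per the labels, reads were aligned to the mouse genome (mm10) with STAR and quantified per gene with RSEM, with versions not given in the sources used here. The deposited table of 32285 genes holds a signal per gene and library, the expected count divided by 1 size factor per library, a scaling found from the values and independent of gene length. WT libraries held 15186247 to 20102295 reads by this scale, so values near 1 stand for about 1 read. Without strand, overlapping and antisense genes cannot be told apart.

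Genes that reached a value of 1 in 4 or more libraries entered limma 3.58.1 (R 4.3.3, trend and robust) on log2(value + 1), in 1 fit of 4 groups without a replicate block, with WT sham libraries 1 and 2 averaged. Tests were two-sided, with Benjamini-Hochberg adjustment. Nothing states that numbered libraries came from separate mice, so p-values measure the spread between these libraries, which may be technical. EBSeq, used in the study, was not run. The procedure was tested on simulated data with normal noise on the log2 scale and the same spread in all groups. That test did not cover changes in genes of a few reads or a shift in library sums.

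Members, gene lists and named genes were chosen with earlier results of these data known. Named genes were the 12 non-overlapping DEGs with the largest difference in each direction and a mean of at least 100 in the higher group, the 10 with the largest gain and the 10 with the largest loss of share, list members by size or role, and genes the study names. Those chosen by role were chosen after their values were seen. Predicted genes were counted but not named, and some other genes that this rule takes in are not reported here. Exon lengths came from GENCODE M21, which held 99.6% of the gene IDs, and promoters from RefSeq. Lists share some genes.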

Additional observations from a re-analysis of the deposited data

Results flagged for a closer look

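The response of Tet2 differed between WT and Opg-/- muscle by the test of the interaction (WT minus Opg-/- log2 response −0.81, adjusted p = 0.0470 over 17948 genes in limma). In WT muscle the log2 difference was 0.06, and in Opg-/- muscle it was 0.87, with 574.8, 592, 650.2, 478 and 611 in den and 292, 333, 291, 309.6 and 357 in sham libraries. All 5 Opg-/- den libraries lay above all 5 Opg-/- sham libraries, while the WT groups overlapped. The adjusted p of the interaction was close to 0.05, and the interaction was not repeated in the alternative settings below. In WT muscle Tet2 was called higher with equal sums (log2 difference 0.37, adjusted p = 0.00849 in limma).

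Dixon's test marked 24 of 406 groups of values of the named genes, against 20.3 that chance gives at 1 in 20. The mean of sham libraries 1 and 2 stood above the other sham libraries for Myh4 (1300000, others 910700 to 933200), Myoz1 (45130, others 37370 to 38510), Eno3 (118500, others 98890 to 101900), Ckm (506700, others 428500 to 439300), Rpl3l (9004, others 7623 to 7778) and Capn3 (3267, others 2859 to 2889). It stood below them for Col6a1 (1592, others 1964 to 2031) and Ces2c (3.26, others 15.3 to 17.2). Sham library 3 was above the others for Runx1 (89.4, others 47.4 to 51.5), Myf6 (2856, others 2698 to 2716), Gdf5 (2.63, others 0) and Orm2 (2.35, others 0). Sham library 4 was below the others for Amd1 (31820, others 41700 to 43960), Chrnb1 (616, others 745 to 767), Camk2a (9427, others 11070 to 11360) and Mstn (1602, others 2201 to 2329).

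Among den libraries, library 1 was set apart by Acta1 (261900, others 307400 to 315700) and Eda2r (8001, others 6975 to 7242), library 2 by Chrne (232, others 131 to 150.2), library 3 by Cd3e (0.802, others 0) and library 4 by Ppp1r3c (1244, others 1423 to 1487). Library 5 was set apart by Ntf5 (0, others 3.21 to 6.53), Rrm2 (174, others 220.2 to 239.5) and Slc7a5 (714, others 549.8 to 581).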

How the results depend on the processing

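With pseudocount 10, 1118 DEGs were higher and 1122 lower (2240 in all). The split by direction moved most with the scale of the values. With libraries scaled to equal sums, 2707 were higher and 1118 lower, and 2724 genes fell at an adjusted p under 0.05. With limma voom on the reads recovered from the values, 2729 were higher, 1130 lower, and 2741 genes fell. The share of DEGs that were higher was thus 70.8% with equal sums and 70.7% with limma voom, against 48.5% with the values as deposited. By adjusted p alone the counts were 4827, 4604 and 9431. Without a filter on low values (21697 genes), with a minimum of 10 (13009 genes), with pseudocount 0.1, with WT libraries only, and with the near-identical pair kept separate or reduced to library 1, every count stayed within 1.5 times. With each library left out in turn, higher DEGs ranged between 1642 and 1718, lower DEGs between 1686 and 1836 and all DEGs between 3370 and 3512. Genes that rose then ranged between 4550 and 4707, those that fell between 4256 and 4441, and both together between 8841 and 9124.

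With a replicate block by library number, 1660 DEGs were higher and 1831 lower with the sham pair taken as number 1, and 1669 were higher and 1820 lower with it as number 2. Same-numbered libraries did not deviate together (correlations of −0.04 to 0.06), so the number was not shown to pair den with sham libraries. The block took away the calls of Mymk (adjusted p = 0.0538 and 0.0611), Ngfr (0.0520 and 0.0537) and, with the pair as number 1, Myh2 (0.0702), Odc1 (0.0675) and Tnmd (0.0553). It gave one to Myh1 (0.0356 and 0.0404) and, with the pair as number 2, to Igf2 (0.00586).

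Of 4056 comparisons of a named gene with an alternative, 21 lost and 15 gained a call and 0 reversed. The median of 13 of 63 lists changed sign with equal sums. Counts of 1 or 2 risen members in the glycolysis, fatty acid, PGC-1 and immediate early lists moved by 1 when single libraries were left out, and the imprinted median was −0.58 without den library 1. Tests with edgeR and DESeq2 were not run, because only 87.05% to 88.12% of the values in WT libraries came out as whole reads. Values of a few reads, such as those of Gdf5, Orm2, Fgf21, Cntnap2 and Cd3e in their lower group, limit the precision there.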
